A study of Bos taurus with 24 samples.

Results

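The protein kinases FYN (ENSBTAG00000011851), JAK2 (ENSBTAG00000012047) and TBK1 (ENSBTAG00000017401) were followed over all conditions of the study. They are 3 of 24616 listed genes and were taken by identifier, with the identifiers of JAK2 and TBK1 read from the gene names in the supplementary tables of the study. The series compared monocyte-derived macrophages (MDMs), grown from blood monocytes, between 3 high and 3 low responder cows, where responders were ranked by how much nitric oxide their MDMs released after E. coli. All cows were lactating Holstein females, and all MDMs, those of the control wells included, had been kept for 6 days in serum-free medium with 5 ng/ml GM-CSF, a growth factor that drives monocytes towards macrophages. From each cow, 1 well was left untreated and 1 well was exposed to E. coli inactivated with PFA at a multiplicity of infection of 5, at both 3 and 18 hours. This gave 24 mRNA libraries in 8 conditions of 3 cows each: untreated high and untreated low responder MDMs, and exposed high and exposed low responder MDMs, at each time point. The question put by the design was whether the response of MDMs to the same dose of bacteria differs between high and low responder cows.

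Each of the 3 kinases stands at a different point of the signalling that follows contact with bacteria. FYN belongs to the SRC family, membrane-anchored tyrosine kinases that phosphorylate immunoreceptors, integrins and their adaptors, and it is also known from T cells. JAK2 is bound to the cytoplasmic tails of cytokine receptors, among them those for GM-CSF and interferon gamma, and it phosphorylates STAT transcription factors once the cytokine binds. TBK1 is a serine/threonine kinase related to the IKK kinases. It is activated through TLR4 with its adaptor TRIF, and through nucleic acid sensors, and it phosphorylates IRF3, which starts the transcription of type I interferon. Whether the kinase proteins were active cannot be read from mRNA.

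All 3 mRNAs were abundant in all 24 libraries. FYN held between 181 and 2199 estimated read pairs per library, JAK2 between 319 and 2165 and TBK1 between 295 and 1409, and none of these 72 values was fractional at the 2 decimals of the files. Library totals ranged from 6297190 to 20936554 estimated read pairs. Per transcript length, in TPM, the share of transcripts, FYN ranged from 10.7 to 97.6 (median 33.8), JAK2 from 13.2 to 92.1 (median 29.7) and TBK1 from 15.8 to 48.2 (median 25.7). The mean TPM of the 3 genes lay above that of between 84.1% and 85.9% of listed genes. The annotation gives each of them 1 transcript, so that a change of isoform could not be seen.

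In control wells the 3 kinases stood at like levels per length, with mean TPM over the 4 control conditions of 19.4 to 36.9 for FYN, 21.6 to 26.7 for JAK2 and 21.5 to 23.9 for TBK1. After 3 hours of E. coli, JAK2 had the highest mean of the 3 kinases, with 72.8 ± 16.7 TPM (SD, n = 3 cows) in high and 57.4 ± 21.3 TPM in low responders. TBK1 then stood at 41.0 ± 1.72 and 32.3 ± 8.70 TPM. At 18 hours the exposed wells of high responders held 47.8 ± 43.1 TPM of FYN, 47.7 ± 0.508 TPM of TBK1 and 37.1 ± 4.28 TPM of JAK2, so that the FYN level differed widely between cows while that of TBK1 was nearly the same in each.

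JAK2 rose early and was partly back by 18 hours. Levels from here on are CPM, counts scaled to a library size adjusted by TMM. In the high responder group at 3 hours, JAK2 stood at 62.8, 34.9 and 49.6 CPM in the control wells and at 294, 171 and 209 CPM in the exposed wells of the same cows. Low responder cows went from 48.3 to 251, from 32.1 to 116 and from 69.8 to 178 CPM. No exposed well at 3 hours was as low as any control well of that time point, and the exposed wells of both phenotypes overlapped. On the log2 scale JAK2 rose by 2.25 (SE 0.18, adjusted p = 2.80e-05) in high and by 1.86 (SE 0.18, adjusted p = 0.000187) in low responders, by edgeR's quasi-likelihood test with Benjamini-Hochberg adjustment over all genes tested. A gene was called at an adjusted p below 0.05 and a fold change above 1.5 in either direction, which 27.6% of genes met in high and 17.7% in low responders at 3 hours. Genes called as higher made up 15.7% and 9.93%.

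At 18 hours JAK2 went from 49.7 to 92.1, from 50.9 to 98.5 and from 53.5 to 115 CPM in the high responder cows. In the low responder cows it went from 53.7 to 87.6, from 54.0 to 64.0 and from 59.7 to 83.3 CPM. The exposed wells of the high responders were then all above those of the low responders, a difference that edgeR did not call (0.38, adjusted p = 0.241). The share of all genes with such a separation of exposed wells was not worked out. The rise of JAK2 with E. coli, of 0.97 in log2 terms (SE 0.10, adjusted p = 2.72e-05), was called in high responders. In low responders it was 0.45 (SE 0.10, adjusted p = 0.00460), a fold of 1.37 that stayed under the fold threshold. Of all genes, 39.6% were called in high and 29.1% in low responders at 18 hours, with 17.1% and 11.3% called as higher. Between 3 and 18 hours JAK2 in exposed wells fell by 1.14 on the log2 scale (SE 0.28, adjusted p = 0.00451) in high and fell by 1.21 (SE 0.28, adjusted p = 0.00388) in low responders. Called as lower over time in exposed wells were 13.2% of genes in high and 11.4% in low responders. In control wells the same comparison gave 0.07 (SE 0.28) and 0.15 (SE 0.28) for JAK2, neither of which was called, against 0.00840% and 0.0336% of all genes. In exposed wells 23.8% and 19.4% of genes were called in either direction.

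TBK1 rose by about the same factor at both times. At 3 hours it went from 48.0 to 114, from 35.8 to 91.5 and from 47.4 to 119 CPM in the high responder cows. In the low responder cows it went from 42.8 to 107, from 34.7 to 61.2 and from 47.2 to 93.3 CPM. At 18 hours it went from 36.1 to 108, from 38.7 to 116 and from 44.3 to 112 CPM in high responders. In low responders at 18 hours it went from 41.1 to 87.3, from 42.0 to 71.3 and from 45.4 to 94.4 CPM. The lowest exposed well of the series, at 61.2 CPM, was above the highest control well, at 48.0 CPM. At 18 hours the exposed wells of the 2 phenotypes did not overlap, and edgeR did not call their difference (0.41, adjusted p = 0.159). As for JAK2, the share of all genes with such a separation of exposed wells was not worked out.

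E. coli was followed by a called rise of TBK1 in each phenotype at each time. On the log2 scale this rise was 1.36 (SE 0.12, adjusted p = 5.92e-05) in high and 1.05 (SE 0.13, adjusted p = 0.000590) in low responders at 3 hours. At 18 hours it was 1.49 (SE 0.10, adjusted p = 1.34e-06) in high and 0.95 (SE 0.10, adjusted p = 3.91e-05) in low responders. Over time, the exposed wells differed by 0.06 (95% interval -0.32 to 0.43) in high and by -0.05 (95% interval -0.42 to 0.32) in low responders, and neither difference was called.

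FYN behaved differently from JAK2 and TBK1 in that the high responder cows were far apart from each other. At 3 hours FYN in high responders went from 27.3 to 34.7, from 53.2 to 108 and from 15.6 to 37.2 CPM. In low responders it went from 56.9 to 76.0, from 54.1 to 72.6 and from 55.3 to 88.3 CPM. At 18 hours it went from 21.8 to 44.9, from 52.8 to 188 and from 17.3 to 39.9 CPM in high responders. In low responders it went from 50.6 to 55.9, from 49.4 to 33.9 and from 58.2 to 75.1 CPM, which is a lower level after E. coli in 1 of 3 cows. In each condition of the high responder group 1 library stood above the others, that of code 94 at 3 hours and that of code 93 at 18 hours.

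Library codes of this series join a number and a letter, and the letter recurs at both time points under different numbers. The labels do not say that a letter marks a cow. By letter, FYN in the control wells of high responders at 3 and 18 hours was 53.2 and 52.8 CPM for the letter I, 27.3 and 21.8 CPM for M, and 15.6 and 17.3 CPM for A. The 6 control wells of low responders lay between 49.4 and 58.2 CPM. The high responder libraries of the letter I thus held as much FYN in control wells as low responders did, and the others held less.

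With E. coli, FYN rose in high responders by 0.94 on the log2 scale at 3 hours (SE 0.17, adjusted p = 0.00251) and by 1.37 at 18 hours (SE 0.19, adjusted p = 0.000176). Both were called. In low responders the change was 0.52 (SE 0.16, adjusted p = 0.0504) at 3 hours and -0.03 (SE 0.18, adjusted p = 0.913) at 18 hours, and neither was called. Between 3 and 18 hours FYN differed in exposed wells by 0.59 (SE 0.55) in high and by -0.52 (SE 0.55) in low responders, and in control wells by -0.07 (SE 0.56) and -0.07 (SE 0.55), none of which was called. These tests over time had no term for the cow, so that their SE holds the spread between cows. Over the alternatives tried, adjusted p values for exposed wells of low responders ran from 0.0343 to 0.803.

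The size of the change at 3 hours depended on the normalization. TMM factors ranged from 0.747 to 0.889 in the exposed wells of high responders at 3 hours against 1.01 to 1.11 in their control wells. Scaled by library size alone, an alternative chosen after seeing the data, the median log2 fold change of all genes was -0.47 in high and -0.43 in low responders at 3 hours and -0.31 and -0.12 at 18 hours. JAK2 and TBK1 kept every call under that scaling. FYN at 3 hours then changed by 0.49 (adjusted p = 0.0552) in high responders and by 0.12 in low responders, and was called in neither. In TPM, 1 of the 3 high responder cows had less FYN in the exposed well at 3 hours, 15.9 against 18.0.

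**Figure D1:**
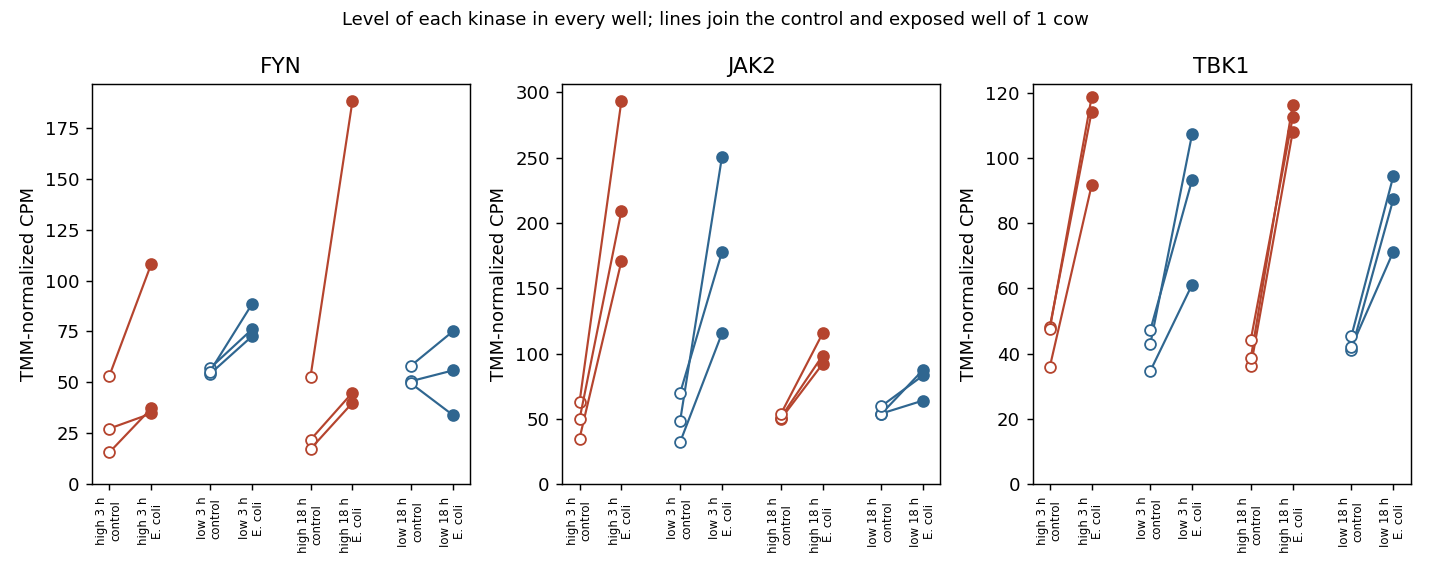
Level of FYN, JAK2 and TBK1 in each of the 24 wells, in CPM after TMM normalization on a linear axis from 0, with control wells as open and exposed wells as filled circles and lines that join the wells of 1 cow (high responders red, low responders blue). JAK2 reached 294 CPM at 3 hours and no more than 115 CPM at 18 hours, TBK1 rose alike at both times, and 1 high responder cow at 18 hours held 188 CPM of FYN while the other exposed wells of that time lay between 33.9 and 75.1 CPM.

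The order of the 8 condition means differed between the kinases. For JAK2 the 4 control conditions were lowest, from 49.1 ± 13.9 to 55.8 ± 3.34 CPM, followed by exposed low responders at 18 hours (78.3 ± 12.5 CPM), exposed high responders at 18 hours (102 ± 12.1 CPM), exposed low responders at 3 hours (181 ± 67.7 CPM) and exposed high responders at 3 hours (225 ± 62.8 CPM). Of the neighbours in this order, the ranges of the last pair overlapped and those of the other exposed conditions did not. For TBK1 the 4 control conditions, from 39.7 ± 4.20 to 43.7 ± 6.91 CPM, overlapped each other and were separate from the 4 exposed conditions, which ran from 84.3 ± 11.9 to 112 ± 4.15 CPM with every neighbour overlapping the next. For FYN every neighbour in the order overlapped the next, from 30.6 ± 19.3 CPM in control wells of high responders at 18 hours to 91 ± 84.2 CPM in their exposed wells.

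The comparison that the design turns on, the change with E. coli in high responders minus that in low responders, was called for 1 of the 3 kinases at 1 time. This was FYN at 18 hours, with a difference of 1.40 on the log2 scale (SE 0.26, 95% interval 0.81 to 1.99, adjusted p = 0.0345). Such a difference was called in 1.62% of genes at 18 hours and as a larger response of high responders in 1.34%. Changes per cow ran from 1.04 to 1.83 in high and from -0.54 to 0.37 in low responders and did not overlap. Of all genes tested at 18 hours, 10.9% likewise had all changes of high responders above those of low responders. The exposed wells alone did overlap, with 91 ± 84.2 CPM in high and 55.0 ± 20.6 CPM in low responders and a difference of 0.73 (SE 0.60, adjusted p = 0.551). In control wells FYN was at 30.6 ± 19.3 CPM in high and 52.8 ± 4.77 CPM in low responders, a difference of -0.80 (SE 0.38, adjusted p = 0.278). Neither of these differences was called.

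The FYN call at 18 hours was not kept in all fits. It was lost in 4 of the 6 fits that left out 1 cow, those without the high responder cow of code 93 (difference 1.16, adjusted p = 0.0608) and without the low responder cows of codes 91, 92 and 94 (1.47, 1.13 and 1.60, adjusted p = 0.0549, 0.117 and 0.0535). It was also lost without the term for the cow (1.52, adjusted p = 0.585) and with scaling by library size alone (1.25, adjusted p = 0.0523), and DESeq2 called it (1.42, adjusted p = 2.49e-05). The difference was positive in each of these fits. Without the high responder library of code 93, control wells at 18 hours differed by -1.45 (adjusted p = 0.0216), which was called, and exposed wells by -0.37.

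JAK2 and TBK1 also had a larger change in high responders at 18 hours, without passing the threshold. The difference was 0.52 (SE 0.14, 95% interval 0.20 to 0.84, adjusted p = 0.104) for JAK2 and 0.55 (SE 0.14, 95% interval 0.24 to 0.85, adjusted p = 0.0810) for TBK1. Changes per cow of JAK2 ran from 0.89 to 1.11 in high and from 0.25 to 0.70 in low responders, and those of TBK1 from 1.34 to 1.59 and from 0.76 to 1.09, with no overlap for either. Of all genes tested at 18 hours, 10.9% had changes per cow in high responders that were all above those in low responders. Over the alternatives tried, adjusted p values ran from 0.0807 to 0.399 for JAK2 and from 0.0549 to 0.351 for TBK1, and no alternative called either.

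At 3 hours none of the 3 differences was called, against 0.178% of all genes. They were 0.43 (95% interval -0.10 to 0.95, adjusted p = 0.480) for FYN, 0.39 (95% interval -0.17 to 0.95, adjusted p = 0.545) for JAK2 and 0.31 (95% interval -0.09 to 0.71, adjusted p = 0.501) for TBK1, and changes per cow overlapped between the phenotypes for all 3, while 9.23% of genes had all high responder changes above those of low responders. Whether the FYN difference changed with time was tested directly, and the difference at 18 hours exceeded that at 3 hours by 1.00 (SE 0.39, 95% interval 0.16 to 1.84, adjusted p = 0.441), which was not called. The same test gave 0.16 (SE 0.30) for JAK2 and 0.27 (SE 0.22) for TBK1. In this test edgeR called 0 of 11905 genes, with 1160 at an unadjusted p below 0.05, and DESeq2 called 33.

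Neither control wells nor exposed wells differed between phenotypes for JAK2 or TBK1 by the thresholds used. The control wells differed by -0.03 (SE 0.32) for JAK2 and 0.07 (SE 0.22) for TBK1 at 3 hours and by -0.13 (SE 0.08) and -0.12 (SE 0.10) at 18 hours. Exposed wells differed by 0.34 (SE 0.30) and 0.34 (SE 0.22) at 3 hours, and by 0.38 (SE 0.15, adjusted p = 0.241) and 0.41 (SE 0.12, adjusted p = 0.159) at 18 hours. FYN in control and exposed wells at 3 hours differed by -0.80 (SE 0.41, adjusted p = 0.760) and -0.35 (SE 0.41, adjusted p = 0.723). Few genes passed in these comparisons of 6 wells, 0.00906% of those tested in control and 0.0839% in exposed wells at 3 hours and 0.150% and 0.0446% at 18 hours. Groups of 3 cows limit a two-sided, exact permutation test of 1 gene to p values of 0.1 or more, which is why fits across all genes were used.

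**Figure D2:**
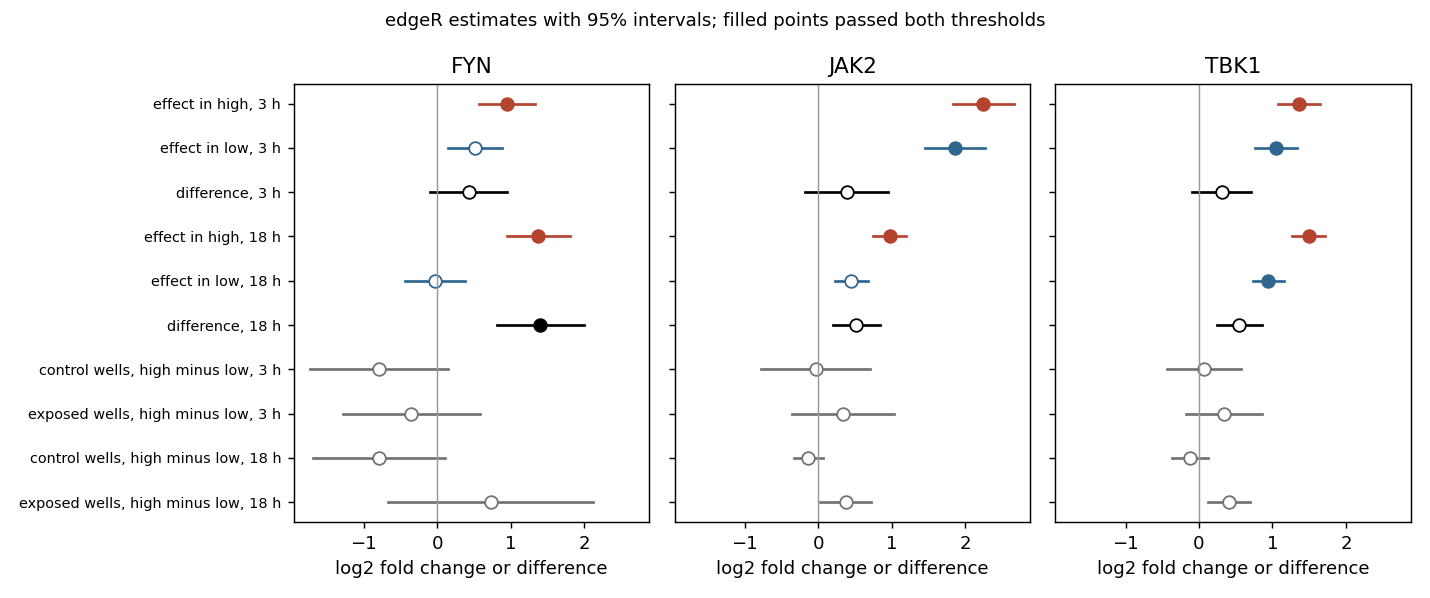
Log2 fold change or difference (x axis) of the 3 kinases in each comparison (y axis), with 95% intervals from edgeR's quasi-likelihood fit, filled points for comparisons past both thresholds and open points for the others. All 4 effects of E. coli are filled for TBK1, the difference between phenotypes is filled for FYN at 18 hours only (1.40, interval 0.81 to 1.99), and the intervals of the JAK2 and TBK1 differences at 18 hours lie above 0.

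The wells were checked for other cells, since FYN is also made in lymphocytes. Of 7 macrophage markers 4 had an identifier here, and CD68 was at 1215 TPM or more and CD14 at 41.0 TPM or more in every library. Of 9 markers of T and NK cells, PRF1 had an identifier and reached at most 2.50 TPM, and of 4 B cell markers CD79A did, with at most 2.67 TPM. None of 4 granulocyte markers could be looked up. PRF1 was called as higher with E. coli at 18 hours in both phenotypes, by 2.14 (SE 0.36) in high and 1.88 (SE 0.41) in low responders. No library held more than 38 read pairs of PRF1, so that these changes rest on low counts. The macrophage markers moved too, with 1 called as higher and 2 as lower in high and 1 and 3 in low responders at 18 hours, the largest change being a fall of MSR1, a scavenger receptor (log2 fold change -4.22 in high and -3.29 in low responders). Of all genes at 18 hours, 17.1% were called as higher and 22.5% as lower in high responders, 11.3% and 17.8% in low responders. The summed level of the 4 macrophage markers in control and exposed wells of high responders at 18 hours ranged from 2966 to 3681 and from 2619 to 2937 TPM, and in low responders from 2259 to 3015 and from 2442 to 2902 TPM.

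Further T cell genes, 5 in all, were chosen after seeing the data, and 2 of them were called as higher at 18 hours in high and 1 in low responders, with no called response difference. Of all genes, 17.1% and 11.3% were called as higher at that time. TCF7 stayed at or below 3.77, SKAP1 at or below 2.15 and TRAT1 at or below 0.750 TPM, the last with 2 libraries at 0. LAT, an adaptor best known from T cells, stood between 17.5 and 624 TPM and rose at 18 hours, by 4.57 (SE 0.28) and 3.23 (SE 0.26). TBX21, a T helper and NK cell transcription factor, changed by 1.19 (SE 0.38, called) in high and -0.43 (SE 0.36) in low responders, with a response difference of 1.62 (SE 0.53, adjusted p = 0.156). Among the exposed high responder libraries at 18 hours, that of code 93, with 97.6 TPM of FYN, held the most PRF1 (2.50 against 2.09 and 2.19 TPM), SKAP1 (1.17 against 0.41 and 0.31 TPM) and TRAT1 (0.75 against 0.44 and 0.24 TPM). It held less TCF7 (0.75 against 3.1 TPM) and TBX21 (1.89 against 3.5 TPM) than that of code 91, and the least LAT of the 3 libraries (330 TPM). No library of the series held more than 38 read pairs of PRF1, 15 of SKAP1 or 18 of TRAT1, so that their order rests on low counts. Among these exposed wells the T and NK cell genes thus differed in which library was highest. In the other high responder conditions the library with the most FYN also held the most PRF1 and TBX21. These were 0.84 and 6.9 TPM in control and 1.54 and 4.71 TPM in exposed wells at 3 hours. In control wells at 18 hours they were 0.76 and 1.79 TPM. That library was highest for SKAP1, TRAT1 and LAT in some of these conditions and for TCF7 in none. In each of them it carried the letter I or J, so that it may stand for 1 cow. In no low responder condition did the library with the most FYN hold the most of both PRF1 and TBX21. In exposed wells at 18 hours that library, of code 94, held the least PRF1 (0.89 TPM) and the most TBX21 (2.74 TPM). The part of such cells in the FYN result was not tested. In bulk RNA, fewer cells of a type and less RNA per cell cannot be told apart.

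The SRC family members LYN and FGR, both known from myeloid cells, stood higher than FYN and also rose with E. coli in low responders, LYN at both times and FGR at 3 hours. Condition means ran from 154 to 401 TPM for LYN and from 204 to 397 TPM for FGR, and from 20.5 to 51.9 TPM for SRC, against 19.4 to 47.8 TPM for FYN. Of 6 other family members listed, 4 had an identifier. At 18 hours 3 of the 4 were called as higher in high and 2 of the 4 in low responders, and at 3 hours 3 and 2 of the 3 tested were, with none lower. Of all genes, 17.1% and 11.3% were called as higher at 18 hours and 15.7% and 9.93% at 3 hours. Scaled by library size alone, the counts in low responders at 3 hours and in high responders at 18 hours were 0 of 3 and 2 of 4. LYN changed by 1.52 (SE 0.08, adjusted p = 3.10e-07) in high and 0.96 (SE 0.08, adjusted p = 8.57e-06) in low responders at 18 hours, and FGR by 0.74 (SE 0.15) and 0.12 (SE 0.14, not called).

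No response difference was called among these SRC family members. That of LYN at 18 hours was 0.56 (SE 0.11, adjusted p = 0.0382), a fold just under the threshold of 1.5, and those of FGR and SRC were 0.62 and 0.56, each with an adjusted p above the threshold (0.157 and 0.121). SRC in control wells at 3 hours stood at 23.1 ± 11.2 CPM in high and 55.5 ± 10.2 CPM in low responders. It changed by 1.47 (SE 0.15, adjusted p = 0.000106) in high and by 0.40 (SE 0.14, adjusted p = 0.0817) in low responders at 3 hours. YES1 was hardly present, with condition means of at most 2.88 CPM, and was called as higher at 18 hours in both phenotypes from control wells at 0.0679 and 0.114 CPM, so that no fold is given.

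Among 16 listed regulators, substrates and partners of SRC family kinases, 8 had an identifier and were tested. At 18 hours the response difference was called in 2 of them, both higher in high responders (1.34% of all genes). One was SIRPA, the receptor on macrophages that restrains phagocytosis, which went from 877 ± 76.3 to 1425 ± 219 CPM in high and from 695 ± 79.3 to 717 ± 140 CPM in low responders (difference 0.67, SE 0.14, adjusted p = 0.0436). The other was FCER1G, the signalling chain of activating Fc receptors, with 642 ± 42.4 and 640 ± 53.5 CPM in control and exposed wells of high responders and a fall from 541 ± 54.4 to 357 ± 65.3 CPM in low responders (difference 0.62, SE 0.13, adjusted p = 0.0464). PTPN11, a phosphatase that acts downstream of many receptors, rose at 18 hours by 0.94 (SE 0.10) in high and 0.68 (SE 0.10) in low responders. PLCG2, a phospholipase that SRC family signalling activates, fell by 0.81 (SE 0.08) and 0.73 (SE 0.08). With scaling by library size alone the median of these partners in high responders at 3 hours was -0.03 instead of 0.43, and neither SIRPA nor FCER1G kept the called difference (0.52 and 0.47). FYB1, an adaptor that FYN binds, rose at 3 hours by 1.26 (SE 0.21) and 0.84 (SE 0.21), and was called at 18 hours in neither phenotype.

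Of the genes around JAK2, the other JAK kinases were covered in part, with 1 of 3 looked up. This was JAK3, which pairs with the common gamma chain of interleukin receptors and stood far below JAK2 per length, at 1.85 to 10.4 TPM as condition means against 21.6 to 72.8 TPM. It went from 7.82 ± 4.22 to 30.3 ± 7.95 CPM in high and from 13.6 ± 2.98 to 21.9 ± 4.31 CPM in low responders at 18 hours, and the difference of 1.36 (SE 0.25, adjusted p = 0.0335) was called. At 3 hours the difference of JAK3 was 1.22 (SE 0.27, adjusted p = 0.111). High minus low responders, its control wells at 3 hours differed by -1.22 and its exposed wells by 0.05, neither of which was called.

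Among 14 receptors listed for JAK2, 4 had an identifier and 3 were tested. CSF2RA, the ligand-binding chain of the GM-CSF receptor, went from 70.2 ± 10.7 to 112 ± 4.26 CPM in high and from 59.9 ± 6.73 to 50.1 ± 18.6 CPM in low responders at 18 hours, a called difference of 1.02 (SE 0.21, adjusted p = 0.0489). CSF2RB, the chain of that receptor to which JAK2 binds, rose in high responders by 0.76 (SE 0.14) at 3 hours and by 0.93 (SE 0.21) at 18 hours, and was not called in low responders (0.15 and 0.12). Its difference at 18 hours was 0.81 (SE 0.30, adjusted p = 0.214). Of 13 listed STAT factors and their inhibitors, 2 had an identifier. STAT2, which transmits type I interferon signals, was called as higher in high responders at 3 hours (0.78, SE 0.15) and at 18 hours (0.84, SE 0.09), and STAT6, which transmits interleukin 4 signals, at 3 hours (0.95, SE 0.10). Neither was called in low responders, and neither response difference was called. Over the alternatives tried, rises in high responders at 3 hours ran from 0.30 to 0.87 for CSF2RB, from 0.32 to 0.91 for STAT2 and from 0.49 to 1.01 for STAT6. The lower ends lie under the fold threshold. Of all genes, 15.7% were called as higher in high responders at 3 hours and 17.1% at 18 hours. In control wells at 18 hours STAT2 was called as lower in high responders, with 70.6 ± 6.95 CPM against 133 ± 3.09 CPM (difference -0.93, SE 0.09, adjusted p = 0.0457).

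Around TBK1, both adaptors measured rose in high responders at both times, and the related kinase IKBKE did not. Of all genes, 15.7% were called as higher in high responders at 3 hours and 17.1% at 18 hours. IKBKE, the other IKK-related kinase, stood at 16.7 to 43.2 TPM as condition means and was called in low responders at 18 hours alone, where it fell by 0.71 (SE 0.11, adjusted p = 0.000446), against -0.19 (SE 0.10) in high responders. The difference between the phenotypes was not called (0.52, SE 0.15, adjusted p = 0.113). TANK, an adaptor that binds TBK1, rose by 1.51 (SE 0.13) in high and 1.04 (SE 0.13) in low responders at 3 hours and by 0.98 (SE 0.09) and 0.60 (SE 0.09) at 18 hours. CALCOCO2, a receptor of autophagy that recruits TBK1 to bacteria, rose by 0.70 (SE 0.13) and 0.66 (SE 0.13) at 3 hours and by 0.83 (SE 0.09) in high responders at 18 hours, where it was not called in low responders (0.35, SE 0.09). Over the alternatives tried, its rise at 3 hours ran from 0.24 to 0.88 in high and from 0.25 to 0.72 in low responders. The lower ends lie under the fold threshold.

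Receptors and sensors upstream of TBK1 moved in both directions. Of 11 listed, 6 were tested, and 3 were called as higher and 2 as lower in high responders at 3 hours, 2 and 3 at 18 hours. Of all genes, 15.7% were called as higher and 11.9% as lower in high responders at 3 hours, 17.1% and 22.5% at 18 hours. IFIH1, a sensor of double-stranded RNA, changed by 1.23 (SE 0.14) in high and -0.02 (SE 0.14) in low responders at 18 hours, a called difference of 1.25 (SE 0.20, adjusted p = 0.0160). TMEM173, which encodes STING, fell in both phenotypes, by 1.17 (SE 0.21) in high and 0.96 (SE 0.21) in low responders at 3 hours and by 1.61 (SE 0.15) and 1.85 (SE 0.15) at 18 hours. CGAS, the DNA sensor that signals to STING, rose at 3 hours by 1.49 (SE 0.21) and 1.39 (SE 0.19) and then lay below control wells at 18 hours by a log2 fold change of -1.30 (SE 0.27) and -1.01 (SE 0.24).

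Genes that interferon induces, the output on which TBK1 and the JAK kinases converge, were called as higher in both phenotypes at 3 hours. Of 10 listed, 5 were tested, and all 5 were called at that time, with a median log2 fold change of 3.91 in high and 2.21 in low responders. At 18 hours 4 were called in high and 2 in low responders. Of all genes, 15.7% and 9.93% were called as higher at 3 hours and 17.1% and 11.3% at 18 hours. The median difference of the 5 genes, high minus low responders, was -2.96 in control and -1.07 in exposed wells at 3 hours. At 18 hours it was -2.20 and -0.86. None of the 5 was called in these comparisons of wells. RSAD2, an antiviral enzyme, went from 27.9 ± 17.5 to 276 ± 165 CPM in high and from 193 ± 23.8 to 499 ± 102 CPM in low responders at 18 hours, a called difference of 1.97 (SE 0.22, adjusted p = 0.00602). ISG15, a ubiquitin-like modifier, had a difference of 1.60 (SE 0.25, adjusted p = 0.0153), and IRF9, which joins STAT2 in the transcription factor of type I interferon, one of 0.59 (SE 0.12, adjusted p = 0.0402). As for FYN, the means of RSAD2 and ISG15 in control wells at 18 hours were lower in high responders, with 68.5 ± 41.2 CPM of ISG15 against 311 ± 20.5 CPM. IFIT1, a sensor of viral RNA, was the one listed gene with a called difference at 3 hours, of 2.59 (SE 0.32, adjusted p = 0.0265).

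Over all 8 lists, 33 of 84 genes had an identifier and 31 were tested at 3 hours and 32 at 18 hours. In high responders 20 were called as higher and 2 as lower at 3 hours and 18 and 4 at 18 hours, and in low responders 13 and 2, and 7 and 7. Of all genes, 15.7% and 17.1% were called as higher in high and 9.93% and 11.3% in low responders at these times. Called as lower were 11.9% and 22.5% in high and 7.78% and 17.8% in low responders. The median log2 fold change at 18 hours was 0.64 in high responders (-0.04 over all genes tested) and -0.01 in low responders (0.00 over all genes). Response differences were called in 1 gene at 3 hours and in 8 at 18 hours, all larger in high responders, with a median of 0.36 (all genes 0.03) and 0.53 (all genes -0.02). Of all genes, 0.178% at 3 hours and 1.34% at 18 hours had a response difference called as larger in high responders. With scaling by library size alone, 14 and 11 listed genes were called as higher in high responders at 3 and 18 hours and 7 and 4 in low responders, and response differences were called in 0 at 3 hours and in 3 at 18 hours, those of RSAD2, ISG15 and IFIH1. The lists were drawn up with earlier results of these data known and cover the genes whose symbol could be looked up, so that these counts describe the named genes alone. Symbols came from the study's own comparison of the phenotypes, made with the same libraries. A gene could thus have entered through the difference counted here, and whether this raised the counts was not tested. The control wells of a phenotype enter its effect of E. coli and also the response difference.

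**Figure D3:**
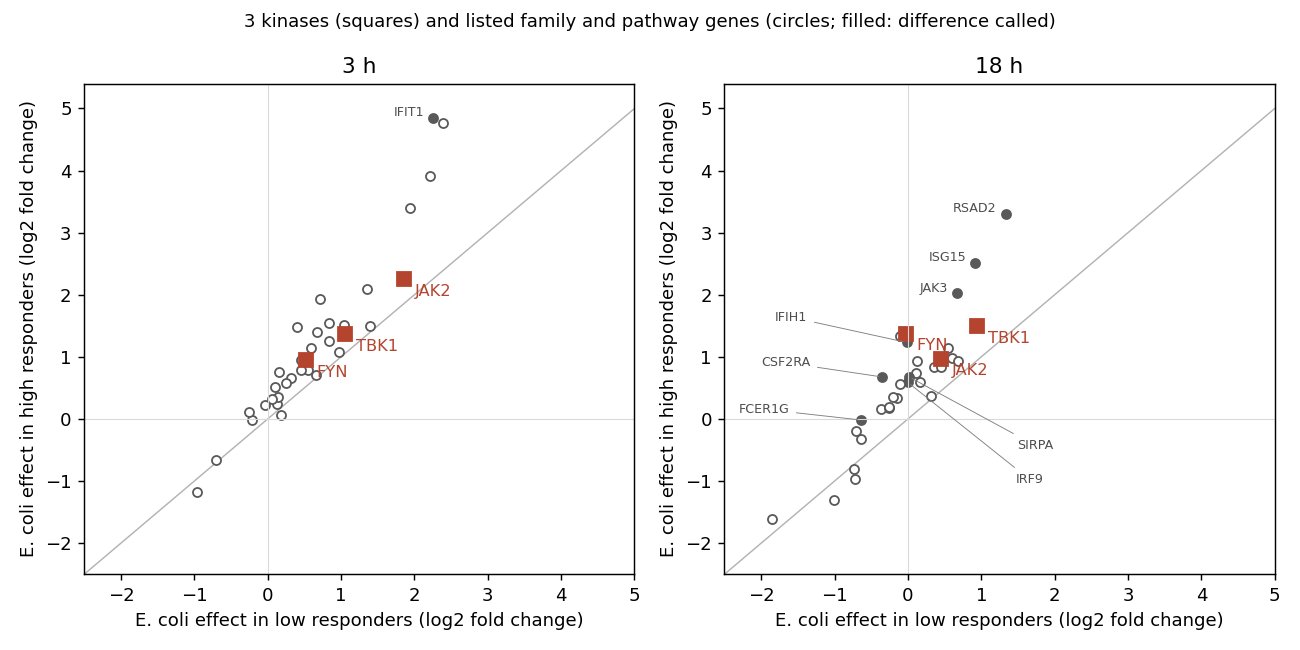
Effect of E. coli as log2 fold change in low (x axis) and high responders (y axis) for FYN, JAK2 and TBK1 (red squares) and the tested genes of the 8 lists (circles, filled where the response difference was called, YES1 left out), at 3 and 18 hours, with a diagonal where both effects are equal. At 18 hours JAK2 and TBK1 lie somewhat above the diagonal, and FYN lies at -0.03 in low and 1.37 in high responders, close to IFIH1 at -0.02 and 1.23.

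The genes whose 8 condition means were most like those of each kinase were found among 2289 other genes with a symbol, by the root mean square difference of log2 CPM centred on each gene's own mean. For FYN these were IGFBP6 (0.114), NT5C3A (0.172) and CD53 (0.192), against a median of 0.656 over all candidates. For JAK2 they were RELB (0.140), CEP83 (0.143) and TNFSF8 (0.169), against 0.906, and for TBK1 they included FAM49A (0.0726) and SWAP70 (0.108), against 0.735. RELB, a subunit of NF-kB, changed by 2.59 and 1.79 at 3 hours and by 1.23 and 0.75 at 18 hours in high and low responders, each called, and CD53, a leukocyte membrane protein, by 1.11 at 18 hours in high responders. Among these 8 genes, the response difference was called for SWAP70 at 18 hours (0.67, adjusted p = 0.0482). The 3 kinases were not alike among themselves: TBK1 stood at rank 105 of the 2289 for JAK2 (0.423) and at rank 496 for FYN (0.487), and JAK2 at rank 1131 for FYN (0.651). Condition means are based on 3 cows each and share libraries, and these values are a description.

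**Figure D4:**
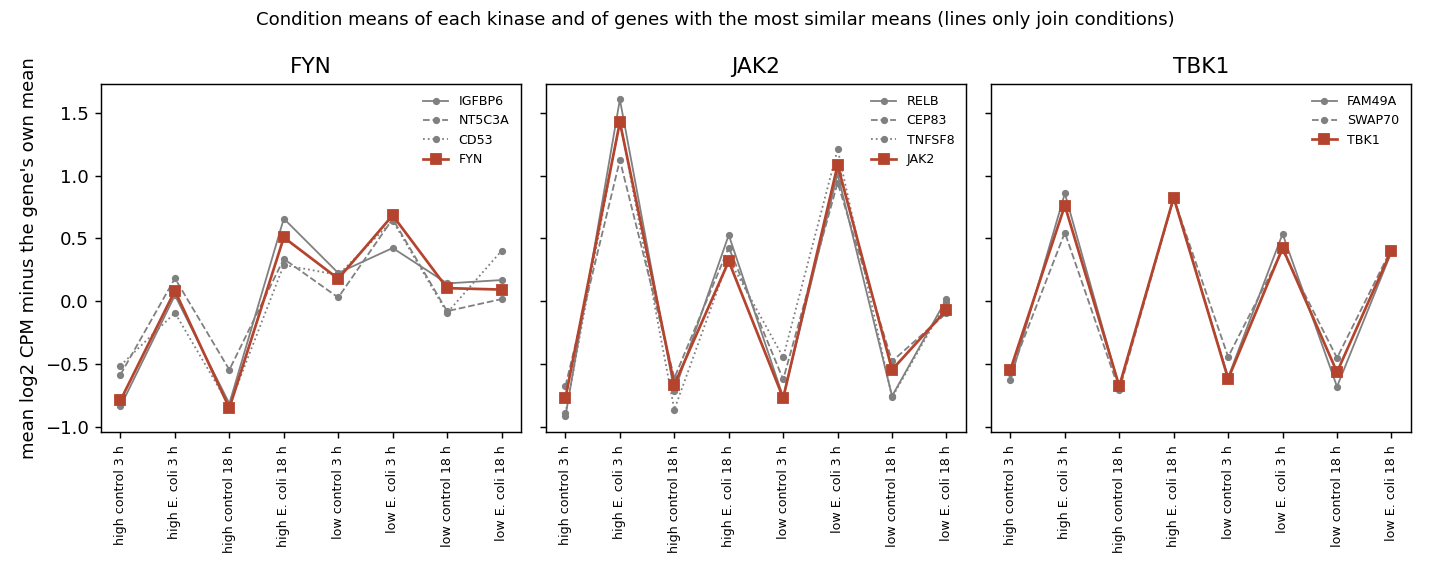
Mean log2 CPM of each kinase (red squares) and of genes most like it (grey, 3 for FYN and JAK2 and 2 for TBK1) in the 8 conditions (x axis), each minus the gene's own mean over the conditions (y axis), where lines only guide the eye. JAK2 and its neighbours peak in exposed wells at 3 hours, TBK1 and its neighbours are high in all 4 exposed conditions, and FYN and its neighbours are lowest in control wells of high responders.

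The position of the 3 genes was compared with the gene order of RefSeq, whose assembly is not the one the authors mapped to. Of the 8 protein-coding genes nearest to each kinase, 4 had an identifier for JAK2, 1 for FYN and 0 for TBK1. Close to JAK2 lie CD274 and PDCD1LG2, which encode the ligands of the inhibitory receptor PD-1. CD274 rose by 3.52 in high and 2.81 in low responders at 3 hours and by 4.97 and 3.55 at 18 hours, with a called response difference at 18 hours of 1.42 (adjusted p = 0.0148). PDCD1LG2 passed the filter on low counts at 18 hours only, with 1 to 3 read pairs in control and 72 to 84 in exposed wells of high responders, and 8 to 11 and 30 to 79 in those of low responders. Its response difference was called (adjusted p = 0.0185), and no fold is given from so few read pairs. CDC37L1 had a called response difference of 0.82 (adjusted p = 0.0343) at 18 hours, and that of PLGRKT was 0.45 (adjusted p = 0.159). Of all genes, 1.62% had a called response difference at 18 hours. Neighbours could be tested only where the study's own comparison of the phenotypes gave a symbol, so that these calls describe no pattern of the region. Next to FYN lies TRAF3IP2, an adaptor of interleukin 17 receptors, which changed by 1.41 and 1.03 at 3 hours and by 0.79 and 0.36 at 18 hours, with a response difference at 18 hours of 0.43 (adjusted p = 0.154).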

How the data were processed

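MDMs of 6 cows gave 24 stranded, paired-end mRNA libraries. The authors used Trimmomatic for trimming, STAR and the bovine genome UMD 3.1 for mapping, and RSEM for quantification. The deposited files hold, per gene, expected counts (estimated read pairs, not normalized) and TPM (relative abundance per transcript length). The authors' own fold changes and p values were not used.

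Expected counts were rounded and tested with edgeR 4.0.16 (R 4.3.3) after TMM normalization and filterByExpr by condition. E. coli effects and response differences came from a quasi-likelihood fit per time with a term for each cow, phenotypes within control or exposed wells from fits of 6 libraries, and times from fits of all 24. Benjamini-Hochberg adjustment ran over all genes tested. The study numbers control and treated samples together, so that libraries sharing a number were paired as wells of 1 cow. Their deviations from condition means had correlations of 0.294 to 0.701 (12 pairs), against -0.532 to -0.0135 for unlike numbers (24 pairs). Deviations cancel within a condition, so that positive correlations for like numbers by themselves push those for unlike numbers to negative values. Library totals from 6297190 to 20936554 limit calls in genes with few counts.

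The 3 kinases, the gene lists and the tests were chosen with earlier results of these data known. Named from the lists are genes with a called response difference, the 2 with the largest called effect per list and time, and SRC, JAK and IKK family kinases. Added are genes among the 3 with condition means most like each kinase. Neighbouring genes and 5 T cell genes were added later. Symbols for 2809 identifiers come from copies of 2 supplementary tables with 1997 rows each. Those tables hold the study's own comparison of the phenotypes. Alternatives were RLE size factors, other filters on low counts (none, or a mean of 50), DESeq2 1.42.0, offsets for effective length, all libraries in 1 fit, no term for the cow, cows matched across times by code letter, leaving out each cow or library and, added after seeing the data, scaling by library size alone. The fits were tested on simulated data. Results for some genes are not reported here.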

Additional observations from a re-analysis of the deposited data

Results flagged for a closer look

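The change with E. coli differed between high and low responders, by a test of the difference itself in edgeR with adjustment over all genes tested, in 10 genes among the 3 kinases and the lists. Among the 3 kinases this was FYN at 18 hours, with 1.40 on the log2 scale. Among listed genes it was IFIT1 at 3 hours with 2.59, and at 18 hours RSAD2 with 1.97, ISG15 with 1.60, JAK3 with 1.36, IFIH1 with 1.25, CSF2RA with 1.02, SIRPA with 0.67, FCER1G with 0.62 and IRF9 with 0.59. Over 14 alternatives each, the sign did not change for any of the 10, and the call was kept in 12 for RSAD2, 11 for ISG15, 10 for IFIH1, 9 for JAK3, 8 for FYN, 8 for IFIT1, 7 for SIRPA, 5 for FCER1G, 5 for IRF9 and 4 for CSF2RA. Over these, the value for FYN ran from 1.13 to 1.60 and its adjusted p from 2.49e-05 to 0.585. Outside the lists, the difference at 18 hours was also called for CD274 (1.42), CDC37L1 (0.82) and PDCD1LG2 near JAK2 and for SWAP70 (0.67). Over all genes tested, such a difference was called in 0.178% at 3 hours and in 1.62% at 18 hours. The named genes had symbols from the study's own comparison of the phenotypes, so that their number cannot be weighed against this share. Each condition holds 3 cows, too few to test a single sample as an outlier.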

How the results depend on the processing

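Of the values recomputed for the 3 kinases, 580 kept direction and side of the thresholds, 23 changed direction, 8 lost a call and 1 gained one, and none of the 23 was called. Without the replicate block (no term for the cow) the FYN effect in high responders at 3 hours was 0.98 (adjusted p = 0.182), its response difference at 18 hours 1.52 (adjusted p = 0.585) and its effect in low responders at 18 hours 0.039. The block changed no other call of the kinases. Scaled by library size alone, these were 0.49 for the FYN effect in high responders at 3 hours and 1.25 for its response difference at 18 hours. The differences of 18 minus 3 hours were then 0.038 and 0.0045 for FYN in control wells of high and low responders and 0.28 for TBK1 in exposed wells of low responders.

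Leaving out 1 cow or library gave ranges of 1.13 to 1.60 for the FYN response difference at 18 hours, -0.23 to 0.24 for its effect in low responders, -1.45 to -0.52 for its control wells between phenotypes and -0.37 to 1.08 for its exposed wells. For 18 minus 3 hours in high responders FYN ranged from -0.71 to 0.53 in control and from -0.51 to 1.34 in exposed wells. JAK2 ranged from -0.10 to 0.43 for the change of the response difference and from -0.28 to 0.26 between control wells at 3 hours. Its 18 minus 3 hours values ranged from -0.13 to 0.28 in high and from -0.085 to 0.48 in low responder control wells. TBK1 ranged from -0.056 to 0.18 between control wells at 3 hours. Its 18 minus 3 hours values ranged from -0.051 to 0.13 in exposed wells of high responders, from -0.072 to 0.15 in control wells of low responders and from -0.25 to 0.12 in their exposed wells.

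Response differences were called in 20 genes at 3 hours with edgeR, 189 with DESeq2, 103 without a filter on low counts, 165 with all libraries in 1 fit and 0 without the block, and at 18 hours in 190, 395, 435, 124 and 0. Leaving out 1 cow moved the count at 3 hours to 506 without the high responder of code 94, to 13 without that of code 92 and to 0 in the other 4 fits. At 18 hours it moved to between 30 (without the low responder of code 92) and 178, with 76 without the low responder of code 94. By library size alone, calls of the E. coli effect split into 1018 higher and 3973 lower in high responders at 3 hours (1768 and 1345 with TMM) and 642 and 2977 in low responders (1119 and 876). At 18 hours they split into 1301 and 3816 (2011 and 2651) and into 1009 and 2482 (1327 and 2092). Why these counts differ was not tested.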
